A study of Mus musculus with 6 samples.

Results

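The hypoxia response and glycolysis genes were examined as a list of 36 genes in mammary tumours with and without serglycin. The list holds 15 glycolysis enzymes, 14 targets of the hypoxia-inducible factors (HIF), 2 glucose and lactate transporters, 3 regulators of glycolytic flux and the 2 regulated HIF alpha subunits. A gene was measured where a probe set of the array carried its symbol and no other, and the brightest such probe set stood for it. This gave 32 genes of 36, among 22180 genes in all. Gpi1, Aldoa, Eno1 and Ankrd37 had no probe set of this kind and were not analysed here.

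The tumours came from 6 mice that carried PyMT, the polyoma virus middle T transgene, which drives mammary tumour formation. Of these mice, 3 lacked serglycin (PyMT+ SG-/-) and 3 kept 1 intact copy of the gene (PyMT+ SG+/-), so that every control also carried a deleted allele, and no mouse with both copies intact was included. Serglycin is a proteoglycan that packs the contents of secretory granules in blood cells and is also made by some tumour cells. Whole tumour tissue was snap-frozen, and 1 Affymetrix whole-transcript array was hybridised per tumour. No source used here states the age or strain of the mice, the tumour stage or the promoter of the transgene. All levels are log2 expression values, on which a difference of 1 is a doubling, and all differences are SG-/- minus SG+/-. Tumours are numbered 1 to 3 within each genotype, with no order or pairing meant. The array number, 3 against 3, limits the precision of every value.

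Glycolysis breaks glucose down to pyruvate, and lactate dehydrogenase turns the pyruvate into lactate when oxygen is scarce or, in many tumours, also when it is not. When oxygen falls, the prolyl hydroxylases that mark HIF alpha subunits for destruction lose activity, the subunits build up, pair with Arnt and bind short hypoxia response elements, and genes for glucose uptake, glycolysis, pH control and vessel growth are switched on. Since hydroxylation acts on the protein, the mRNA level of Hif1a or Epas1 does not report HIF activity, whereas the mRNA levels of their targets are commonly used as a readout.

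The labelled tissue and genotype were checked first. Of 7 epithelial genes, Krt8, Krt18 and Epcam stood between 11.85 and 12.32 in all 6 tumours. Not all of the 7 were this steady, and Krt19 ran from 8.57 to 10.07. Srgn, the deleted gene, stood at 6.76, 6.43 and 6.35 in SG+/- tumours and at 5.07, 5.04 and 4.89 in SG-/- tumours, with no overlap. The difference was -1.52 (SE 0.15), and Srgn had the smallest p of all genes (limma adjusted p = 0.467). The array of SG-/- tumour 3 stood apart from the others. The interquartile range of its values was 2.56, against 2.85 to 3.15 in the other 5 arrays, and the mean of 1390 olfactory and vomeronasal receptor genes, taken as silent in this tissue, was 5.87 in it and 4.58 to 5.63 in the others. Bright genes also read low in this array. Among the brightest 25% of genes, those with a mean above 8.71, the median shift from the SG+/- mean was -0.22 in SG-/- tumour 3 and between -0.03 and 0.04 in the other 5 tumours. Of the 32 genes described here, 21 belong to this bright class. By their mean over the arrays, all 32 lay above the dim level of 6.09, the 40th percentile of probe sets. Results below are therefore also given without SG-/- tumour 3 for many genes, though not for every gene that leaving it out moved most. For the groups of genes they are also given after cyclic loess normalization, an added step that removes such shifts with brightness between arrays.

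No hypoxia or glycolysis gene passed the test over all genes. In limma with Benjamini-Hochberg adjustment over 22180 genes, 0 of the 32 were called at an adjusted p of 0.05, as were 0% of all genes, and the adjusted p was 1.00 for each of the 32. At an unadjusted p of 0.05, 1 of the 32 passed, Kdm3a, on the lower side, where 0.685% of all genes and 1.01% of the brightest 25% passed, and 0 of the 32 passed on the higher side, where 1.43% did. Counting both sides, 2.11% of all genes passed. The mean was lower in SG-/- tumours for 28 of the 32, against 53.7% of all genes and 68.6% of the brightest 25%. The median difference over the 32 was -0.17, against -0.01 over all genes and -0.06 over the brightest 25%. After cyclic loess normalization 26 of the 32 were lower, with 50.4% of the brightest 25%, and the median was -0.14. Without SG-/- tumour 3, 24 of the 32 were lower with a median of -0.088. With limma array weights, 17 of the 32 were lower with a median of -0.016. Those weights counted SG-/- tumour 3 least (0.197) and SG-/- tumour 2 most (4.95), so that tumour 2 dominated the SG-/- side. In 4 of the 32 every SG-/- tumour lay below every SG+/- tumour, namely Pfkm, Tpi1, Gapdh and Kdm3a, where 3.19% of all genes and 6.37% of the brightest 25% did the same. After cyclic loess normalization these were also 4 genes, with Pfkl in place of Tpi1. The shares were then 3.56% of all genes and 5.25% of the brightest 25%. In 0 of the 32 genes did all SG-/- tumours lie above the SG+/- tumours, as 2.84% of all genes did. Because each tumour sample is a mixture of cells, fewer cells of a type and less RNA per cell cannot be told apart in these values.

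**Figure D1:**
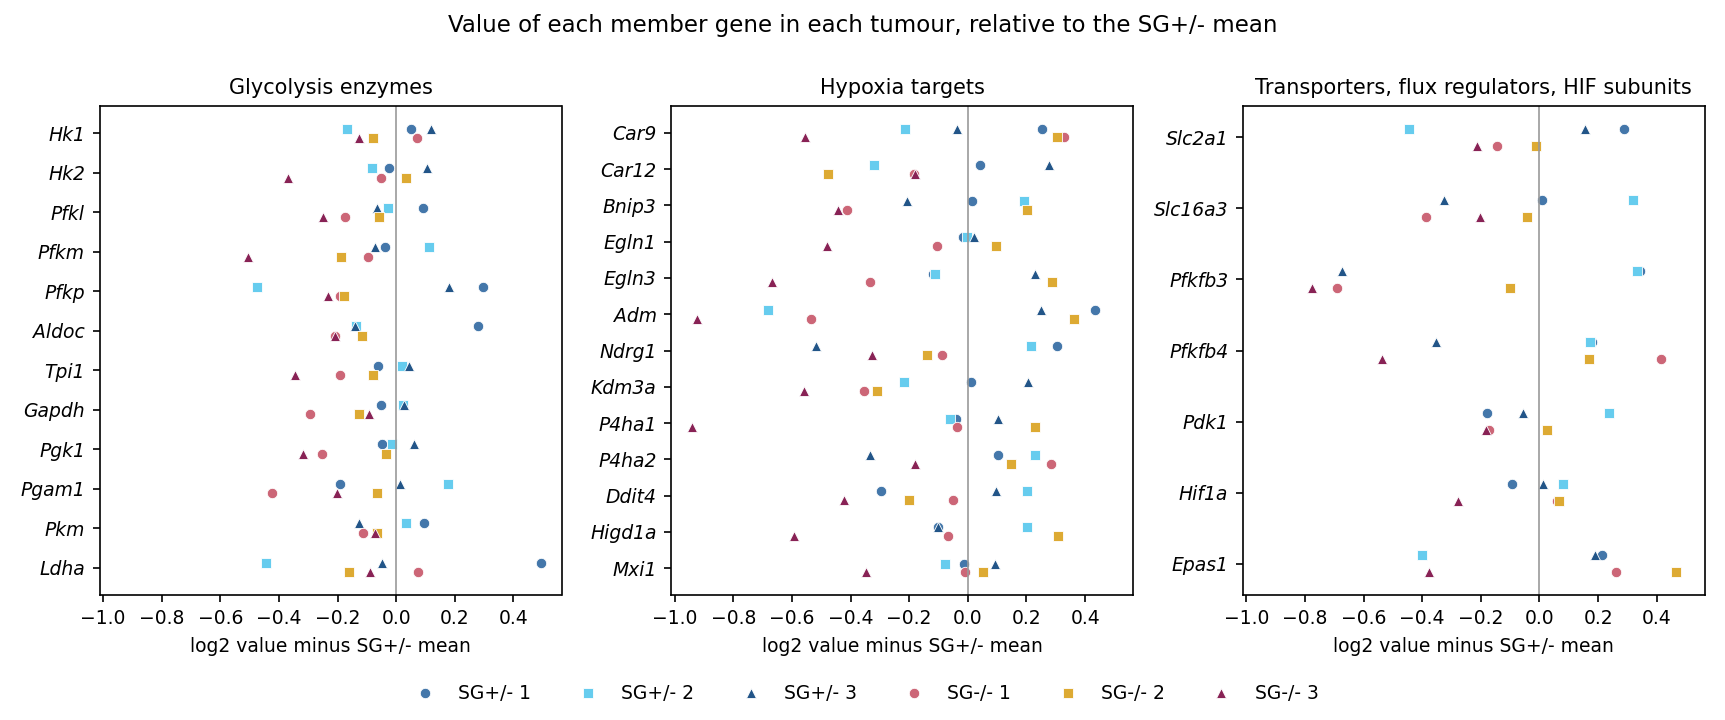
Each point is 1 tumour, plotted as its log2 value minus the SG+/- mean of that gene, with blue points for SG+/- and red, yellow and purple points for SG-/- tumours. Most SG-/- points of the glycolysis enzymes lie left of 0 by less than 0.5, while the hypoxia targets spread more widely, with SG-/- tumour 3 lowest in 10 of 13 and SG-/- tumour 2 highest in 5.

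The glycolysis enzymes were lower in SG-/- tumours in all 12 measured cases, by small amounts, against 68.6% of the brightest 25% of genes. The differences ran from -0.26 for Pfkm to -0.04 for Hk1, with a median of -0.17, and 0 of the 12 reached an unadjusted limma p of 0.05. The smallest p was 0.124. Tumour by tumour, the median shift of the 12 from their SG+/- means was -0.18, -0.08 and -0.22 in SG-/- tumours 1, 2 and 3, and 0.01, -0.02 and 0.02 in SG+/- tumours 1, 2 and 3. All 3 SG-/- medians thus lay below all 3 SG+/- medians, which centring on the SG+/- means keeps near 0. By the mean level of the 12, SG-/- tumour 2 (10.66) and SG+/- tumour 2 (10.67) were almost level. In SG-/- tumour 3 the median shift equalled that of bright genes at large, whereas in SG-/- tumours 1 and 2 bright genes at large stood at 0.03 and 0.01. After cyclic loess normalization the 3 SG-/- medians were -0.18, -0.08 and -0.11, and 10 of the 12 enzymes were lower. Without SG-/- tumour 3 the median difference was -0.14, with 12 of 12 lower, while 43.7% of the brightest 25% of genes were lower in that comparison.

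The pathway opens with Hk1 and Hk2, hexokinases that trap glucose in the cell as a phosphate, which had differences of -0.04 and -0.13, with 95% intervals from -0.37 to 0.28 and from -0.48 to 0.23. Hk2, the form most often linked to tumours and hypoxia, stood at 7.86, 7.80 and 7.99 in SG+/- tumours and at 7.83, 7.92 and 7.51 in SG-/- tumours, so that only tumour 3 fell outside the SG+/- range. Without that tumour the Hk2 difference was -0.0087. Phosphofructokinase, the step that commits sugar to glycolysis, is made from 3 subunits named after liver (Pfkl), muscle (Pfkm) and platelet (Pfkp). Pfkm (Entrez 18642, probe set 17314577) stood at 8.93, 9.08 and 8.90 in SG+/- tumours and at 8.87, 8.78 and 8.47 in SG-/- tumours. Its genotypes did not overlap, but the gap between the nearest tumours was small, and the difference of -0.26 (SE 0.15, 95% interval from -0.62 to 0.09) became -0.14 without SG-/- tumour 3. Pfkl differed by -0.16 and Pfkp by -0.20. In Pfkp the SG+/- tumours themselves were far apart, at 10.36, 9.59 and 10.24, around SG-/- values of 9.87, 9.89 and 9.83.

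Skeletal muscle next to a mammary tumour also makes Pfkm, so the mean level of 6 muscle genes was set beside it. It was 7.41, 6.50 and 7.63 in SG+/- tumours and 7.16, 6.27 and 7.75 in SG-/- tumours, lowest in tumour 2 of each genotype. The part of muscle in the Pfkm values was not tested.

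In the middle of the pathway, Gapdh (Entrez 14433, probe set 17260881), glyceraldehyde phosphate dehydrogenase and a common reference gene for RNA measurements, stood at 12.92, 13.00 and 13.00 in SG+/- tumours and at 12.68, 12.84 and 12.88 in SG-/- tumours. All 3 SG-/- tumours lay below all SG+/- tumours, and tumour 1, not tumour 3, was lowest. The difference was -0.17 (SE 0.12, 95% interval from -0.46 to 0.12, limma unadjusted p = 0.203), which is 1.13-fold. The other 2 Gapdh probe sets with a single symbol differed by -0.16 and -0.17. Gapdh and Pgam1 have many processed copies in the mouse genome, and whether the probes separate them was not tested, so their signals are uncertain as to gene.

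Tpi1 (Entrez 21991, probe set 17470879), triosephosphate isomerase, stood at 11.70, 11.78 and 11.80 in SG+/- tumours and at 11.57, 11.68 and 11.41 in SG-/- tumours. These genotypes again did not overlap, with a difference of -0.20 (SE 0.13, limma unadjusted p = 0.153), and SG+/- tumour 1 and SG-/- tumour 2 were almost level. After cyclic loess normalization the genotypes of Tpi1 overlapped, with a difference of -0.16. Without SG-/- tumour 3 the Tpi1 difference in the deposited values was -0.13. Pgk1, phosphoglycerate kinase, stood at 11.65, 11.68 and 11.75 against 11.44, 11.66 and 11.37. Here SG-/- tumour 2 lay inside the SG+/- range and tumours 1 and 3 below it, for a difference of -0.20 (SE 0.13). Pgam1, phosphoglycerate mutase, differed by -0.23 in the brighter of its 2 probe sets and by -0.10 in the other. Aldoc, an aldolase, and Pkm, pyruvate kinase, differed by -0.18 and -0.08. In Aldoc, SG+/- tumour 1 alone was high, at 12.50, and the other 5 tumours lay from 12.01 to 12.10.

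Ldha, the lactate dehydrogenase chain induced by HIF, did not separate the genotypes. It stood at 10.50, 9.56 and 9.96 in SG+/- tumours and at 10.08, 9.84 and 9.92 in SG-/- tumours, so the SG-/- values all lay inside the SG+/- range. The difference was -0.06, with a 95% interval from -0.62 to 0.51, and it was 0.19 without SG+/- tumour 1 and -0.28 without SG+/- tumour 2. Slc2a1, the main glucose transporter of epithelial tumours, was, like Ldha, highest in SG+/- tumour 1 and lowest in SG+/- tumour 2. It stood at 11.37, 10.63 and 11.23 there and at 10.94, 11.07 and 10.87 in SG-/- tumours, a difference of -0.12 (SE 0.21).

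Lactate export and flux control gave wide values. Slc16a3, a lactate exporter, differed by -0.21 (SE 0.19). Pfkfb3, which makes the sugar phosphate that activates phosphofructokinase, had the largest difference of the 32 genes, -0.52 (SE 0.32, 95% interval from -1.28 to 0.23, limma unadjusted p = 0.147). It stood at 8.42, 8.41 and 7.40 in SG+/- tumours and at 7.38, 7.97 and 7.30 in SG-/- tumours. SG+/- tumours 1 and 2 were thus high, while SG+/- tumour 3 lay with the SG-/- tumours, and the difference was -0.86 without SG+/- tumour 3, -0.35 without SG+/- tumour 1 and -0.40 without SG-/- tumour 3. Its relative Pfkfb4 differed by 0.02 (SE 0.28), with its lowest values, 6.14 and 5.96, in tumour 3 of either genotype, and by 0.29 without SG-/- tumour 3. These lowest Pfkfb4 values lie near the dim level of 6.09. Pdk1, the kinase that keeps pyruvate out of the mitochondrial cycle, differed by -0.11 (SE 0.15).

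**Figure D2:**
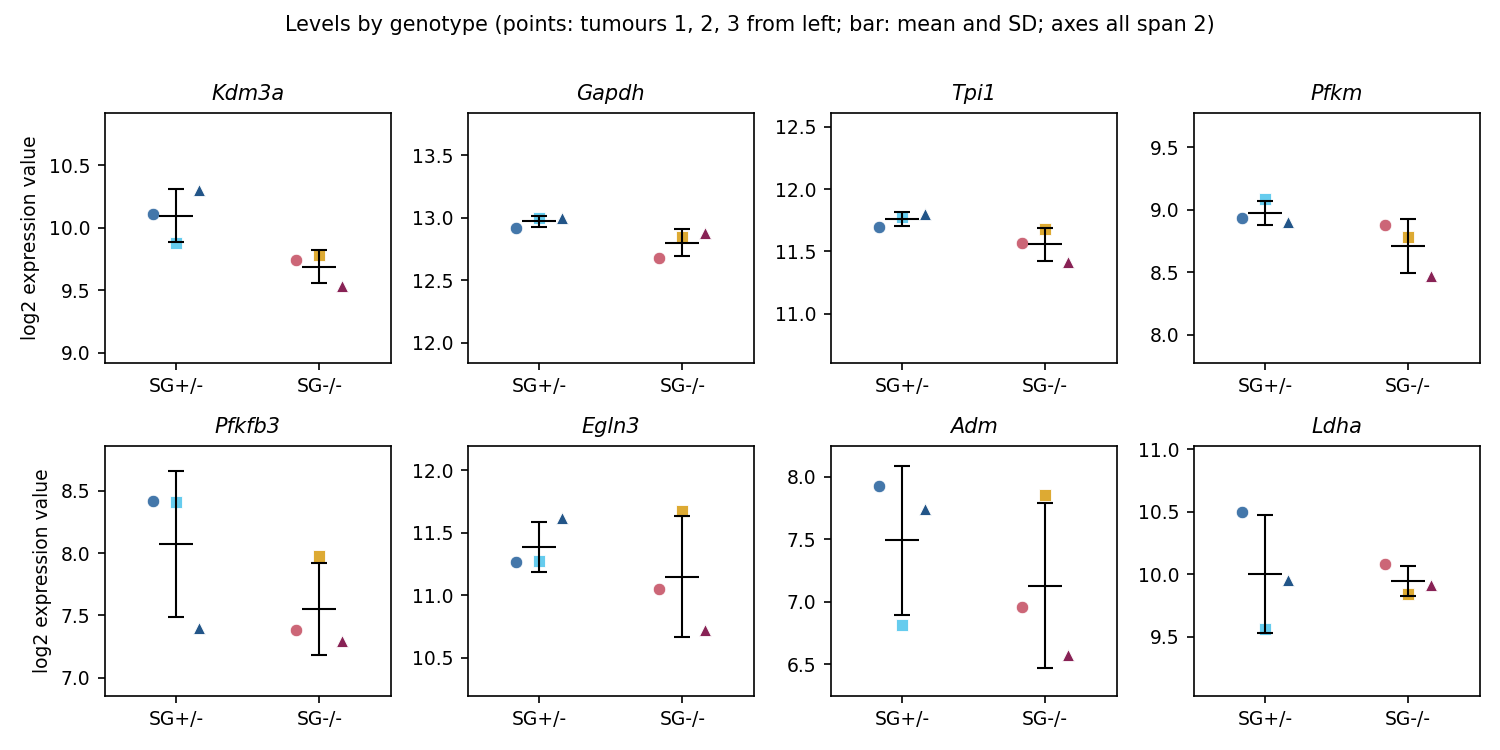
Log2 expression values of 8 genes by genotype, with 1 point per tumour (tumours 1 to 3 from left to right) and bars for the mean and SD of 3 tumours; every axis spans 2. Kdm3a, Gapdh, Tpi1 and Pfkm are the genes without overlap, and in Pfkfb3, Egln3, Adm and Ldha the range within each genotype exceeds the difference between the means.

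The hypoxia targets were lower in SG-/- tumours in 11 of 13 cases, with a median difference of -0.22, and Car9 and P4ha2 were the exceptions. Of the 13, 1 gene, Kdm3a, had an unadjusted limma p under 0.05. Unlike the glycolysis enzymes, the 13 targets did not shift alike in the 3 SG-/- tumours. Their median shift from the SG+/- mean was -0.09 in SG-/- tumour 1, 0.15 in tumour 2 and -0.48 in tumour 3, against 0.01, -0.06 and 0.09 in SG+/- tumours 1, 2 and 3. SG-/- tumour 2 was thus above all SG+/- medians and SG-/- tumour 3 below them all.

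SG-/- tumour 3 was the lowest of the 6 tumours in 10 of the 13 targets, and in 63.2% of the brightest 25% of genes. After cyclic loess normalization it was lowest in 6 of the 13, against 18.5% of the brightest 25%, and its median shift was -0.21, with -0.17 in SG-/- tumour 1 and 0.14 in SG-/- tumour 2. Without SG-/- tumour 3 the median difference of the deposited values was -0.02, with 8 of 13 targets lower, and with limma array weights, which gave that array 0.197 and SG-/- tumour 2 4.95, it was 0.08. The median of the hypoxia targets was -0.16 after cyclic loess normalization and -0.19 after a further quantile normalization, with 11 of 13 lower under both. The median of the hypoxia targets moved more when SG-/- tumour 3 was left out than under these normalizations, and the cause was not tested. With array weights the median of the glycolysis enzymes was -0.10.

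**Figure D3:**
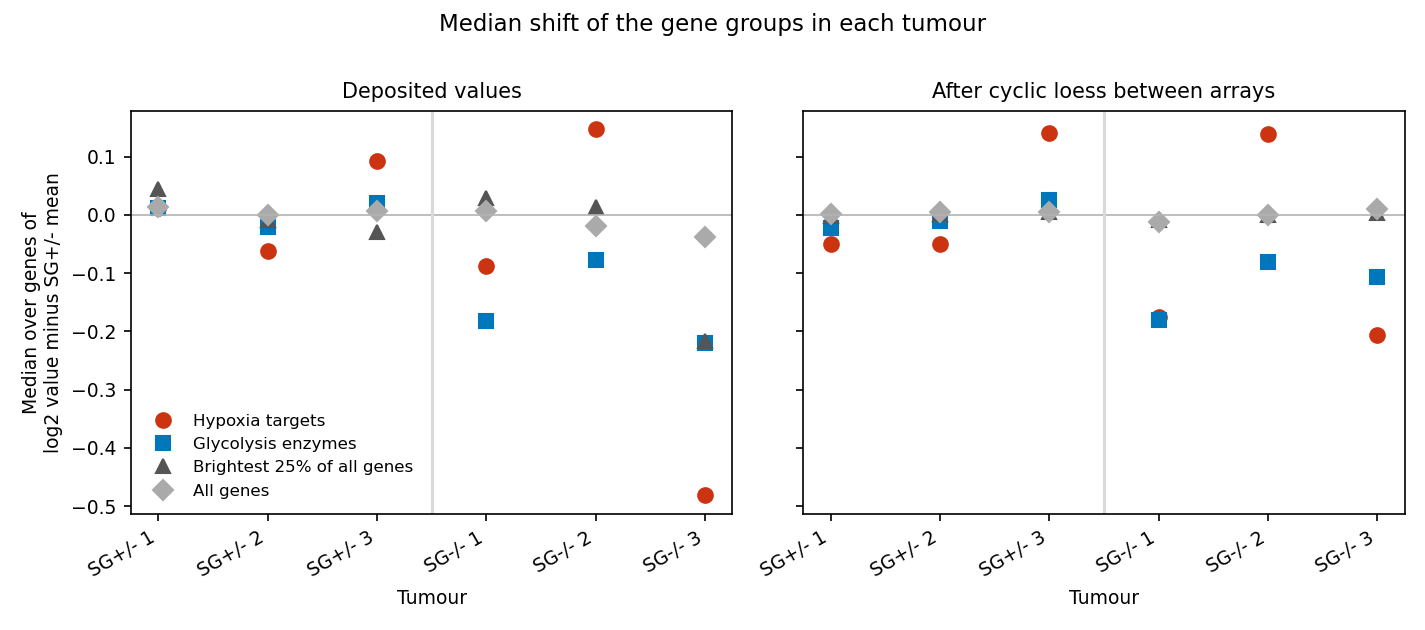
Each point is the median, over the genes of a group, of the log2 value minus the SG+/- mean in 1 tumour, for the deposited values (left) and after cyclic loess normalization (right). The brightest 25% of genes lie at -0.22 in SG-/- tumour 3 on the left and near 0 on the right, where hypoxia targets remain at -0.21 and glycolysis enzymes at -0.11.

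Kdm3a (Entrez 104263, probe set 17467624), a histone demethylase induced by HIF, was the target with the clearest separation. It stood at 10.11, 9.88 and 10.30 in SG+/- tumours and at 9.74, 9.78 and 9.54 in SG-/- tumours. Every SG-/- tumour lay below every SG+/- tumour, and the difference of -0.41 (SE 0.16, 95% interval from -0.78 to -0.04, limma unadjusted p = 0.0341) is 1.33-fold. It stayed between -0.52 and -0.31 when each tumour was left out in turn, with an unadjusted p above 0.05 in 5 of those 6 fits. After cyclic loess normalization the difference was -0.35 and the genotypes still did not overlap.

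The enzymes that sense oxygen are also HIF targets, which makes them a common readout of the pathway. Egln1, the main hydroxylase of HIF alpha, stood at 8.91, 8.93 and 8.95 in SG+/- tumours and at 8.83, 9.03 and 8.45 in SG-/- tumours. The SG+/- values were almost equal and SG-/- tumour 3 alone was clearly lower, for a difference of -0.16 (SE 0.17) that was -0.0052 without this tumour. Egln3 stood at 11.27, 11.28 and 11.61 against 11.05, 11.67 and 10.72, with SG-/- tumour 2 the highest of all and SG-/- tumour 3 the lowest, and differed by -0.24 (SE 0.25). Without SG-/- tumour 3 the Egln3 difference was -0.02, and without SG-/- tumour 2 it was -0.50.

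Among the targets that control acidity and blood flow, Car9 and Car12 encode carbonic anhydrases at the cell surface. Car9 stood at 8.67, 8.21 and 8.38 in SG+/- tumours and at 8.75, 8.73 and 7.86 in SG-/- tumours, a difference of 0.03 with a 95% interval from -0.60 to 0.66, and of 0.32 without SG-/- tumour 3. Its other probe set, nearly as bright, differed by -0.44, so the Car9 probe sets disagree in direction. Car12 differed by -0.28 (SE 0.19). Adm, the vessel-widening peptide adrenomedullin, had the widest range of the 32 genes, 1.36. It stood at 7.93, 6.81 and 7.74 in SG+/- tumours and at 6.96, 7.86 and 6.57 in SG-/- tumours, high in 3 tumours and low in the other 3 regardless of genotype, and differed by -0.36 (SE 0.40), or by -0.085 without SG-/- tumour 3.

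P4ha1 and P4ha2 encode hydroxylases that let collagen chains fold. P4ha1 stood at 8.81, 8.79 and 8.95 in SG+/- tumours and at 8.81, 9.08 and 7.91 in SG-/- tumours. SG-/- tumour 3 alone was low, and the difference of -0.25 (SE 0.29) was 0.10 without it. P4ha2 differed by 0.08 (SE 0.20). Fibroblasts also use these enzymes, and the mean of 5 fibroblast genes was 9.78, 9.82 and 9.43 in SG+/- tumours and 10.90, 9.66 and 10.01 in SG-/- tumours, highest in SG-/- tumour 1. The part of fibroblasts in the P4ha1 and P4ha2 values was not tested.

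The other targets act in stress and mitochondrial turnover. Bnip3, which marks mitochondria for removal, stood at 7.97, 8.14 and 7.74 in SG+/- tumours and at 7.54, 8.15 and 7.51 in SG-/- tumours, low in SG-/- tumours 1 and 3 but not in tumour 2, for a difference of -0.22 (SE 0.21). Higd1a, a mitochondrial protein, differed by -0.12 (SE 0.24) and Ddit4, an inhibitor of the growth kinase mTOR, by -0.22 (SE 0.18). Without SG-/- tumour 3 the differences of Bnip3, Higd1a and Ddit4 were -0.11, 0.12 and -0.13. Mxi1, a Myc antagonist, differed by -0.10 in its brighter probe set and by 0.02 in the other. The brighter Mxi1 probe set differed by 0.021 without SG-/- tumour 3. Ndrg1, a stress-response protein, differed by -0.18 (SE 0.23), and its lowest value, 10.32, was in SG+/- tumour 3.

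**Figure D4:**
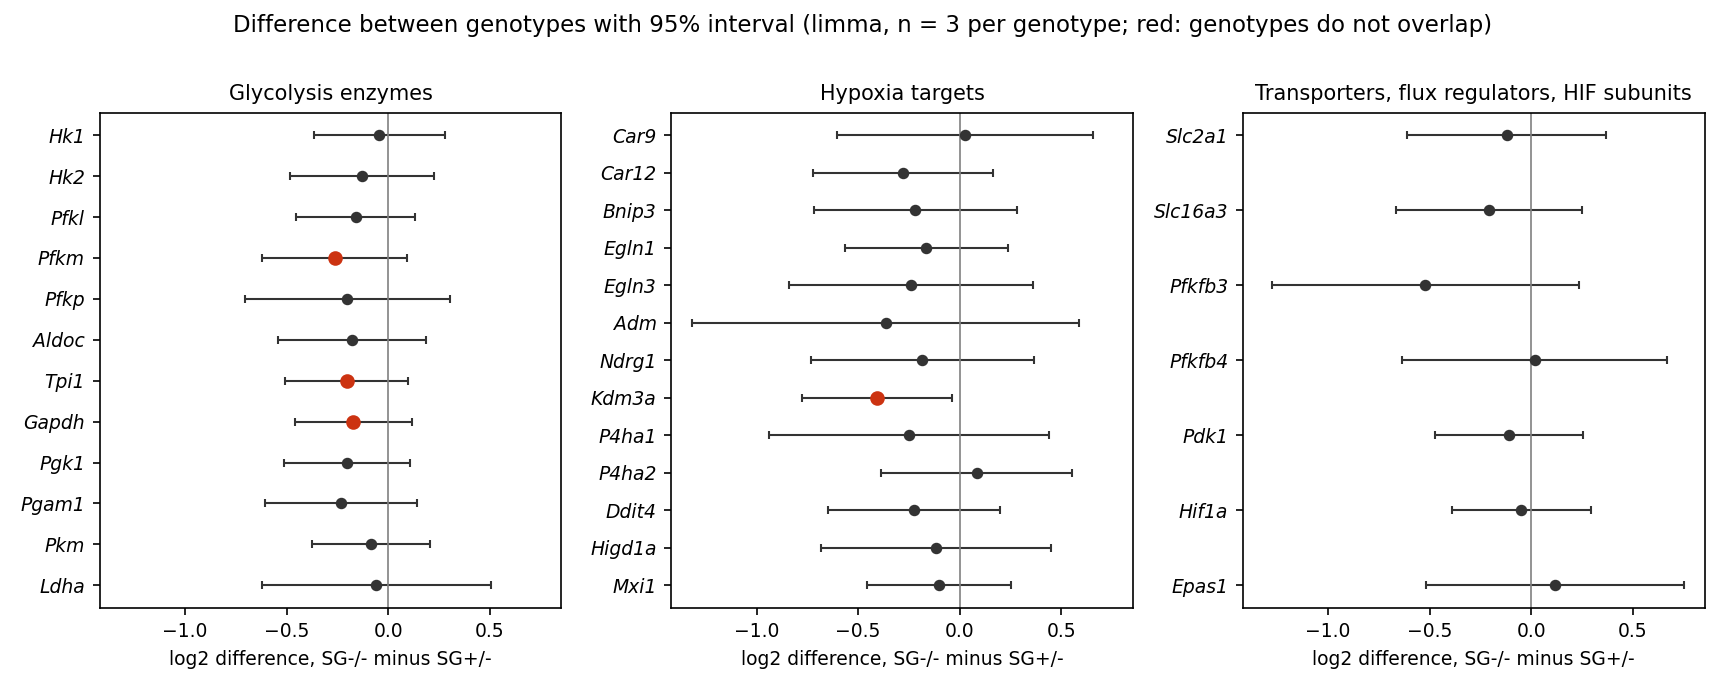
Log2 difference, SG-/- minus SG+/-, with its 95% interval from limma for each measured gene (n = 3 per genotype); red points are genes whose genotypes do not overlap. The interval excludes 0 in Kdm3a alone, and that gene did not pass the adjustment over all genes.

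The HIF alpha subunits showed no separation. Hif1a stood at 9.93, 10.10 and 10.03 in SG+/- tumours and at 10.08, 10.09 and 9.74 in SG-/- tumours, a difference of -0.05 with a 95% interval from -0.39 to 0.29. Epas1, which encodes HIF-2 alpha and is strong in endothelium, differed by 0.12, with a 95% interval from -0.52 to 0.75. It stood at 9.19, 8.58 and 9.17 in SG+/- tumours and at 9.24, 9.45 and 8.60 in SG-/- tumours. Low values thus occurred once in each genotype, and without SG-/- tumour 3 Epas1 differed by 0.36 and Hif1a by 0.063. The 5 endothelial genes had a mean of 7.97, 7.82 and 8.03 in SG+/- tumours and 8.55, 8.31 and 8.15 in SG-/- tumours, and their part in the Epas1 values was not tested.

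The upstream DNA of these genes was searched for the core letters of the hypoxia response element, ACGTG and GCGTG, on both strands of windows from 250 bases before to 50 bases after the gene start (RefSeq, GRCm38.p6). Of the 32 genes, 30 matched at least 1 window, 43 windows in all, and 34 of the 43 (79.1%) held ACGTG or GCGTG, against 43.8% of 32851 windows of all genes. Both motifs contain a CG pair, and these windows are rich in it, with a median of 20 CG pairs against 7. Among windows with at least 10 CG pairs, 28 of 32 (87.5%) held a motif, against 68.4% of all such windows. This cutoff does not match the windows for CG content, and some genes have several windows. The list was also made up of HIF targets and glycolysis genes, so these shares are descriptions with no test. ACGTG on both strands at once is CACGTG, the letters of an E-box bound by Myc and other factors, and 5 of the 43 windows (11.6%) held it, against 7.15% of all. A match is a description of the letters and not evidence of binding.

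The stretches below belong to the 2 hypoxia targets and the 2 glycolysis enzymes with the smallest limma p among those with a match, and are shown so that the motif can be seen in place beside the values above. Kdm3a is shown for 30 bases (chr6:71632927-71632956, minus strand, 1 of its 3 windows, the other 2 having no match), around a GCGTG 27 to 23 bases before the start. The Kdm3a stretch was cut because a longer transcript of the gene reaches into it. The other 3 are the 250 bases before the start: Ddit4 (chr10:59951771-59952020, minus strand), Pfkm (chr15:98092339-98092588, plus strand, 1 of its 4 windows) and Pgk1 (chrX:106186850-106187099, plus strand). The Pfkm window shown is the first by position, and other windows of this gene also held a match. Capitals mark ACGTG or GCGTG on either strand, and each sequence reads 5′ to 3′ along its gene.
Kdm3a: ccgggaggctgtGCGTGtcttgtgagagag
Ddit4: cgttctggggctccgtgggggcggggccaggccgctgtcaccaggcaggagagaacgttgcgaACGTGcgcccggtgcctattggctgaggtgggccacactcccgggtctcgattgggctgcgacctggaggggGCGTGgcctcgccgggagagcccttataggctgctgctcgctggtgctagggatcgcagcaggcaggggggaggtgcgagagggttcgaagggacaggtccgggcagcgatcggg
Pfkm: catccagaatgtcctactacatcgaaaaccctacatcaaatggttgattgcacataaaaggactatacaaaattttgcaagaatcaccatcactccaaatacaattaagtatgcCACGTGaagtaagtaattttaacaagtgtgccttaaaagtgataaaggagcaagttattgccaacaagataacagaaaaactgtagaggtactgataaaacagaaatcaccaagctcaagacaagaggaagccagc
Pgk1: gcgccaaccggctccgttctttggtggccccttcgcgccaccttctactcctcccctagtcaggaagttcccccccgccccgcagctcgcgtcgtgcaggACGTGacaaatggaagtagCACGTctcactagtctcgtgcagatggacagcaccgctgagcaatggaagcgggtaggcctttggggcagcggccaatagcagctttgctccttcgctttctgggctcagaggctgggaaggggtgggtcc
In Pfkm the matches on the 2 strands overlap as CACGTG, while Pgk1 holds 2 separate matches on opposite strands and Ddit4 holds 1 ACGTG and 1 GCGTG. Car12 and Tpi1, which had a smaller p than Ddit4 and Pgk1, held neither motif in their windows. The differences of the 4 genes shown, in the order printed, were -0.41, -0.22, -0.26 and -0.20.

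Other genes of the pathway were taken from lists of 58 genes, of which 51 were measured and 0 passed the adjustment over all genes in limma. Of the 51, 37 were lower in SG-/- tumours (72.5%), against 53.7% of all genes and 68.6% of the brightest 25%. At an unadjusted p of 0.05, 3 passed on the lower side (Plod2, Fbp1 and Ldhb) and 1 on the higher side (Hk3). On those sides 0.685% and 1.43% of all genes passed. The 22 other hypoxia targets had a median difference of -0.17, with 14 lower (63.6%), a share below that of the brightest 25%. Plod2, which hydroxylates lysines of collagen and is induced by HIF, stood at 9.32, 9.35 and 9.29 in SG+/- tumours and at 8.91, 8.73 and 8.24 in SG-/- tumours. All SG-/- tumours were lower, tumour 3 most, with a difference of -0.70 (SE 0.19, limma unadjusted p = 0.0076), which was -0.50 without tumour 3. Gbe1 and Ccng2 also showed no overlap, on the lower side. Of the 22, these 3 genes did so, and 3.19% of all genes.

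Vegfa, the vessel growth factor, followed the pattern of Egln3 and Bnip3. It stood at 10.64, 10.17 and 10.41 in SG+/- tumours and at 9.78, 10.65 and 9.71 in SG-/- tumours, low in SG-/- tumours 1 and 3 and highest in SG-/- tumour 2, for a difference of -0.36 (SE 0.27). Fam162a, a mitochondrial protein, and Pgf, a relative of Vegfa, differed by -0.37 (SE 0.19) and -0.67 (SE 0.34). Of the 22 other hypoxia targets, 8 were higher in SG-/- tumours, and Lox had the largest of these differences, 0.91 (SE 0.51). Lox stood at 8.46, 8.38 and 8.13 in SG+/- tumours and at 10.53, 8.40 and 8.78 in SG-/- tumours. Among 9 other HIF regulators, 8 were lower in SG-/- tumours, with a median of -0.12. Vhl, which binds hydroxylated HIF alpha for destruction, differed by -0.13 and Arnt2 by -0.40. Hif1an, the asparagine hydroxylase of HIF alpha, differed by -0.28 and Ep300, a coactivator, by -0.17. Without SG-/- tumour 3 the differences of Vhl, Arnt2, Hif1an and Ep300 were 0.073, -0.22, -0.086 and -0.13. Ep300 did not overlap between genotypes, nor did the related coactivator Crebbp, both on the lower side, which makes 2 of 9. On that side 3.19% of all genes and 6.37% of the bright class showed no overlap. Crebbp differed by -0.12, and the limma unadjusted p was 0.189 for Ep300 and 0.368 for Crebbp.

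Of 20 other genes of glucose use, 15 were lower, with a median of -0.05. Fbp1, the phosphatase that runs the phosphofructokinase step backwards, stood at 8.22, 9.72 and 8.28 in SG+/- tumours and at 7.45, 7.89 and 7.59 in SG-/- tumours. The genotypes did not overlap, and the difference of -1.10 (SE 0.40, limma unadjusted p = 0.028) was -0.61 without SG+/- tumour 2, the tumour that stood high. Ldhb, the partner chain of Ldha, stood at 9.69, 9.33 and 9.48 against 9.07, 9.28 and 9.09, a difference of -0.35 (SE 0.15, limma unadjusted p = 0.0452) with no overlap, where Ldha differed by -0.06. Hk3, a hexokinase best known from white blood cells, was at 6.06, 5.74 and 5.79 against 6.54, 6.20 and 6.10, near the dim level. The Hk3 difference was 0.41 (SE 0.17, limma unadjusted p = 0.0437), also with no overlap. Its highest value was in SG-/- tumour 1, where the mean of 6 macrophage genes was also highest. The part of macrophages in Hk3 was not tested. Of the 20 genes, 2 showed no overlap on the lower side and 1 on the higher side, against 3.19% and 2.84% of all genes.

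Markers of other cell types moved between the tumours. All 6 macrophage, all 5 endothelial and all 5 fibroblast genes had a higher mean in SG-/- tumours, none past the adjustment over all genes. The macrophage mean ran from 8.49 to 8.61 in SG+/- tumours and was 9.56, 9.00 and 8.56 in SG-/- tumours 1, 2 and 3. Salivary gland genes, 6 in all, had a mean between 6.14 and 6.80 in SG+/- tumours and of 10.35, 7.77 and 9.54 in SG-/- tumours 1, 2 and 3, and Bpifa2, a parotid protein, stood at 13.54, 7.26 and 13.64 in the latter. The 6 salivary genes did not move together: Bpifa2, Amy1, Smr3a and Dcpp1 were high in SG-/- tumours 1 and 3, while Klk1, at 9.02, 10.40 and 6.74 in SG-/- tumours, and Prol1, at 10.40, 10.86 and 6.40, were highest in SG-/- tumour 2. The part of these cells in the differences was not tested. Epithelial genes, 7 in all, had a mean from 10.86 to 11.02 in SG+/- and from 10.94 to 11.16 in SG-/- tumours. Of these 7, 5 were higher and 2 lower in SG-/- tumours. Krt19 differed by 0.89 (SE 0.29, limma unadjusted p = 0.0176) and Cldn7 by -0.26 (SE 0.16). Adipocyte genes had a mean from 6.11 to 6.71 in SG+/- and from 6.48 to 7.16 in SG-/- tumours. Of 5 red blood cell genes only Slc4a1 was measured, at 6.31 to 6.62 in SG+/- and 6.18 to 6.33 in SG-/- tumours.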

How the data were processed

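Gene expression was measured in 6 mammary tumours, 3 SG-/- and 3 SG+/-, with 1 array each. The authors deposited 1 log2 value per probe set and array, made with the robust multi-array average (RMA), per the series design text. Tools listed in the submitters' processing notes, with no version, were limma, RMA and Affymetrix Expression Console. The file held 33793 probe sets with 0 missing values and 0 unused columns.

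The platform annotation gave 23521 probe sets 1 gene symbol, 1814 several and 8458 none. The brightest probe set per gene left 22180 genes. Of the 23521, 23328 had an Entrez ID in RefSeq (GRCm38.p6). The comparison of SG-/- with SG+/- used limma 3.58.1 in R 4.3.3 (lmFit, then eBayes). Its p-values are 2-sided, were adjusted by Benjamini-Hochberg over the 22180 genes and were read at 0.05. The scripts were tested on simulated data. Mice are separate animals per the labels, with no pairing or batch given. Medians over a list are descriptions with no test. The genes and lists were chosen with earlier results of these data known. Every gene of the list is accounted for. Of each further pathway list the first gene and up to 3 with the smallest p are named. Small counts and Lox are also named, and their genes were chosen after their values were seen. Alternatives were a filter on dim genes, other normalizations, variance models, array weights, probe set means, a receptor covariate and leaving out each tumour. Cyclic loess was added after the data were seen. Plots used matplotlib 3.10.9.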

Additional observations from a re-analysis of the deposited data

How the results depend on the processing

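Under every setting tried, 0 of the 32 hypoxia and glycolysis genes passed the adjustment over all genes. The number of genes called over all genes was 0 in the fit reported, 1 (Srgn) with the receptor mean as covariate, and 0 to 1 when single tumours were left out, the 1 being Bpifa2 without SG-/- tumour 2. The number of the 32 genes with an unadjusted p under 0.05 was 1 in the fit reported, 2 with trend and robust settings (Gapdh, Kdm3a), 2 with array weights (Car12, Kdm3a), and 0 to 3 with single tumours left out. Without SG+/- tumour 2 these were Pfkp, Car12 and Kdm3a, without SG+/- tumour 3 Pfkfb3 and Ndrg1, without SG-/- tumour 2 Egln3, and 0 genes without any 1 of the other 3 tumours. Over all genes this count was 469 in the fit reported, 2569 with array weights, 1039 with the covariate and 793 with cyclic loess normalization, and ran from 327 to 1200 with single tumours left out, the highest without SG-/- tumour 3. The median difference of glycolysis enzymes ran from -0.21 to -0.13 with single tumours left out, and that of hypoxia targets from -0.29 to -0.02. The array weights were highest for SG-/- tumour 2 (4.95) and lowest for SG-/- tumour 3 (0.197). With them 11 differences changed sign, to Slc16a3 0.018, Pfkfb3 0.0305, Pdk1 0.009, Bnip3 0.16, Egln1 0.038, Egln3 0.075, Adm 0.091, Ndrg1 0.052, P4ha1 0.11, Higd1a 0.26 and Hif1a 0.049. Quantile normalization turned Hk1 to 0.0059 and Pfkfb4 to -0.074, the mean of all probe sets turned Car9 to -0.21, and the covariate turned Pfkfb4 to -0.0064. Cyclic loess turned Hk1 to 0.018, Ldha to 0.0025, Pfkfb4 to -0.0089 and Hif1a to 0.01. With single tumours left out, the differences that changed sign in some fit ran as follows: Pfkfb4 from -0.18 to 0.29, Car9 from -0.13 to 0.32, P4ha2 from -0.084 to 0.21, Epas1 from -0.084 to 0.36, P4ha1 from -0.49 to 0.10, Higd1a from -0.33 to 0.12, Mxi1 from -0.18 to 0.021, Hif1a from -0.11 to 0.063, Ldha from -0.28 to 0.19, Slc2a1 from -0.34 to 0.022, Pdk1 from -0.20 to 0.0092 and Hk1 from -0.13 to 0.015. The cause of these changes was not tested. No paired analysis was possible because the labels give the tumours no number shared between genotypes. With 3 arrays per genotype, the standard errors of the 32 genes were 0.12 to 0.40, and the smallest detectable difference is larger than these. For Gapdh, with SE 0.12, the 95% interval ran from -0.46 to 0.12. Srgn, at -1.52 (SE 0.15), did not pass the adjustment over all genes.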
